A study of Mus musculus with 6 samples.

Results

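The genes described here are 48 genes of protein folding and of the unfolded protein response, the signalling that the endoplasmic reticulum (ER) uses when misfolded protein builds up in it. They were taken by symbol from a list of heat shock factor 1 and the cytosolic heat shock proteins, the chaperonin TRiC, the mitochondrial chaperones, and the ER sensors, chaperones and degradation factors. All 48 are among the 15452 genes of the deposited table and all 48 passed the filter on low counts. By the compartment in which they act, 22 are ER genes, 20 are cytosolic and 6 are mitochondrial.

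The libraries are mRNA from mouse Th17 cells, the helper T cells that make interleukin 17, grown from splenic and lymph node naive CD4+ T cells. One group of 3 libraries is labelled PDH knockout, which the series title spells out as pyruvate dehydrogenase, and was made with floxed alleles and CD4 Cre (the sample titles spell the locus PHD), and the reference group of 3, labelled WT, carries the floxed alleles without Cre. Both groups received the same 3-day culture with plate-bound anti-CD3 (5 μg/mL), anti-CD28 (1 μg/mL), IL-6 (30 ng/mL), TGFβ (2 ng/mL) and anti-IFNγ (5 μg/mL). CD4 Cre is active in the whole T cell lineage from the thymus onward and is absent from WT, so an effect of Cre cannot be told apart from that of the deletion. Whether replicates are separate mice is not stated in the labels, and p-values then reflect sample-to-sample spread that may be technical. Levels are CPM, counts scaled to library size with TMM factors (trimmed mean of M values), and fold changes are log2 of PDH knockout over WT ± SE, with adjusted p from edgeR's quasi-likelihood test across 15361 genes. A gene is said to have risen or fallen where that adjusted p was under 0.05.

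Chaperones bind unfolded or partly folded proteins and help them reach their native shape. In the cytosol, HSP70 proteins work with J-domain partners and nucleotide exchange factors, HSP90 completes the maturation of kinases and receptors, TRiC folds actin and tubulin, and the transcription factor HSF1 raises heat shock genes when unfolded protein accumulates. In the ER, the HSP70 protein BiP, HSP90-like GRP94, the lectin chaperones and the disulfide isomerases fold secreted and membrane proteins, and the sensors IRE1α, ATF6 and PERK adjust this machinery, IRE1α by splicing the mRNA of XBP1. Mitochondria have their own HSP60 chaperonin and HSP70.

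Total counts ran from 33802154 to 39398842 in PDH knockout libraries and from 37556787 to 40407124 in WT libraries, and CPM intervals from these totals cover counting error only. Pdha1, the E1α subunit gene of pyruvate dehydrogenase, was at 198, 193 and 186 CPM in PDH knockout and at 256, 236 and 251 CPM in WT. The subunit gene Dlat also fell, from 84.0, 83.3 and 78.1 CPM in WT to 50.1, 50.7 and 52.2 CPM in PDH knockout. Pdhb, a further subunit gene, did not pass (79.1, 77.4 and 81.8 CPM in PDH knockout, 89.9, 89.8 and 83.8 CPM in WT). Which gene was floxed is not stated, and a count over the whole gene does not show a deleted exon. The 8 T cell identity genes summed to 1954 to 2062 CPM in PDH knockout and 2378 to 2563 CPM in WT (by library totals). The 10 B cell markers summed to 66.9, 156 and 248 CPM in PDH knockout replicates 1 to 3 and to 67.5, 132 and 55.1 CPM in WT replicates 1 to 3 (by library totals), with none at 0 in any library. None of these 10 passed the test. Their part in the results was not tested, and values without the 3 libraries richest in them are given with the gene groups. The 4 plasma cell markers measured summed to 805 to 919 CPM in PDH knockout and 702 to 785 CPM in WT; nearly all of it was Irf4, which T cells also express. Of the other 3, Sdc1 fell (1.91 to 3.40 CPM in PDH knockout, 6.10 to 10.7 CPM in WT), Prdm1 rose (0.344 to 0.623 CPM in PDH knockout, 0.0811 to 0.105 CPM in WT) and Mzb1 did not pass (0.0495 to 2.47 CPM in PDH knockout, 0.0741 to 0.838 CPM in WT). The 2 CD8 T cell markers summed to 5.58 to 14.9 CPM in PDH knockout and 8.68 to 11.3 CPM in WT, and the 8 Th17 markers to 674 to 841 CPM in PDH knockout and 1001 to 1302 CPM in WT. The 6 myeloid markers measured summed to 5.34 to 9.47 CPM in PDH knockout and to 8.83 to 22.4 CPM in WT. PDH knockout replicate 2 held 4.948% of its counts on a single unnamed entry, against 0.08 to 0.215% in the other libraries.

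The chaperone genes did not move as one in PDH knockout cells. Of the 48 members, 8 rose, 21 fell and 19 did not pass. Over all tested genes the share called was 47.6%, with 23.1% higher and 24.5% lower, while 60.4% of the members were called. The median log2 fold change of the members was -0.16, against 0.01 over all tested genes. Knockout and WT values did not overlap in 32 members (66.7%, against 58.2% of all tested genes), including all 29 called ones. The calls fell mostly on the ER genes: 5 of 22 rose and 12 fell (77.3% called), whereas in the cytosolic set 3 of 20 rose and 7 fell (50%) and in the mitochondrial set 2 of 6 fell and none rose (33.3%). The median log2 fold changes were -0.32 for ER, -0.09 for cytosolic and -0.08 for mitochondrial members. With upper-quartile scaling 10 members rose and 16 fell, the share of higher calls being 38.5% rather than 27.6% (over all genes 59.95% rather than 48.53%), and the medians were -0.24, -0.01 and 0. A culture with fewer cells of a type and one with less RNA per cell cannot be told apart in such bulk libraries.

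**Figure D1:**
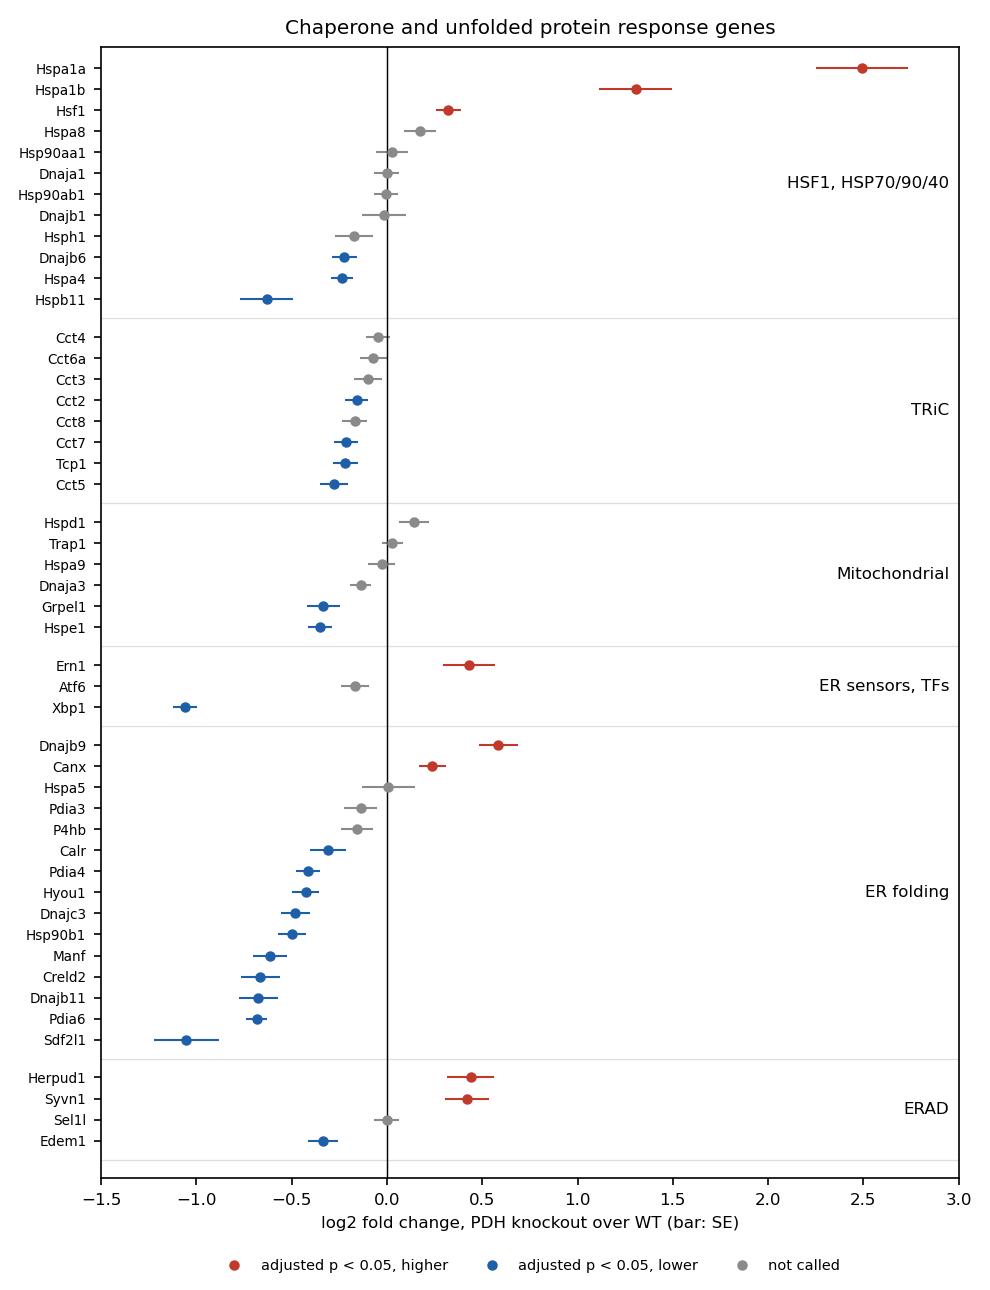
Log2 fold change of PDH knockout over WT (x axis, bars are SE) for each of the 48 members (y axis), grouped by role; red points rose, blue points fell and grey points did not pass at an adjusted p of 0.05. Most ER folding genes lie left of 0, with Dnajb9 and Canx to the right, and Hspa1a and Hspa1b lie farthest right.

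The sensors and transcription factors of the ER response went in different directions. Xbp1 (ENSMUSG00000020484.20), which encodes the transcription factor activated by IRE1α, was at 75.8, 71.4 and 70.6 CPM in PDH knockout and at 157, 154 and 143 CPM in WT. Every knockout value was below every WT value by a wide margin, and the fold change of -1.06 ± 0.06 had the smallest p of the 48 members (adjusted p = 7.83e-06). These are counts over the whole gene and do not separate spliced from unspliced Xbp1 mRNA. Ern1, the gene of IRE1α, was at 21.2, 16.4 and 20.005 CPM in PDH knockout and at 14.995, 11.7 and 15.99 CPM in WT. Its groups nearly touched, and the rise of 0.43 ± 0.14 (adjusted p = 0.0258) no longer passed without PDH knockout replicate 1, PDH knockout replicate 3 or WT replicate 2 (adjusted p = 0.0804, 0.0812 and 0.0585). Atf6, the sensor that is cleaved in the Golgi to release a transcription factor, was at 55.5, 47.0 and 52.4 CPM in PDH knockout and at 56.8, 60.03 and 57.1 CPM in WT. Its knockout values were all lower but it did not pass (-0.17 ± 0.07, adjusted p = 0.0853), except without PDH knockout replicate 1 (adjusted p = 0.0435). Eif2ak3, the gene of PERK, which is outside the 48, was at 42.2, 43.6 and 41.4 CPM in PDH knockout and at 48.4, 40.4 and 54.3 CPM in WT (-0.17 ± 0.10, adjusted p = 0.178).

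Of the 15 ER chaperones and folding enzymes, 10 fell, 2 rose and 3 did not pass, with a median log2 fold change of -0.43. The share called was 80%, against 47.6% of all tested genes. Pdia6, a disulfide isomerase, was at 158, 161 and 156 CPM in PDH knockout and at 251, 265 and 247 CPM in WT. The values within each group were close, and the fall was 0.62-fold (-0.68 ± 0.05, adjusted p = 2.65e-05). Hsp90b1, the gene of GRP94, was at 466, 489 and 433 CPM in PDH knockout and at 619, 697 and 644 CPM in WT (-0.50 ± 0.07, adjusted p = 0.000498). Manf, a small secreted ER protein that binds BiP, was at 62.0, 62.0 and 61.9 CPM in PDH knockout and at 93.1, 109 and 82.6 CPM in WT (-0.61 ± 0.09, adjusted p = 0.000593). The knockout libraries were almost identical for Manf while WT replicates spread. Creld2, an ER protein with disulfide isomerase activity, was at 16.5, 19.6 and 17.6 CPM in PDH knockout and at 26.8, 32.0 and 26.3 CPM in WT (-0.67 ± 0.10, adjusted p = 0.000665).

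The other folding genes that fell were Sdf2l1, which cooperates with BiP and its J-domain partners, at -1.05 ± 0.17, the J-domain cochaperone genes Dnajb11 and Dnajc3 at -0.67 ± 0.10 and -0.48 ± 0.08, Hyou1, the nucleotide exchange factor of BiP, at -0.43 ± 0.07, the isomerase gene Pdia4 at -0.41 ± 0.06, and the lectin chaperone gene Calr at -0.31 ± 0.09. Sdf2l1, whose values were chosen for printing after they were seen, was at 22.9, 21.8 and 19.1 CPM in PDH knockout and at 40.7, 56.1 and 35.5 CPM in WT. Calr, calreticulin, no longer passed without PDH knockout replicate 1, PDH knockout replicate 3 or WT replicate 2 (adjusted p = 0.0621, 0.083 and 0.0547), where the change without WT replicate 2 was -0.19. In the opposite direction, Dnajb9, a J-domain gene whose product restrains IRE1α, was at 12.2, 12.5 and 12.3 CPM in PDH knockout and at 7.78, 9.01 and 7.88 CPM in WT (0.58 ± 0.10, adjusted p = 0.00143). Canx, the membrane-bound partner of calreticulin, rose by 0.24 ± 0.07 (adjusted p = 0.0201), a call lost without PDH knockout replicate 1 or 2 or WT replicate 1 or 3 (adjusted p = 0.051, 0.0925, 0.0975 and 0.0523). Dnajb9 and Canx were printed with these values because they are the only folding genes that rose. A test against a fold of 1.2 rather than no change left 9 of the 15 lower and 1 higher.

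Hspa5 (ENSMUSG00000026864.14), the gene of BiP, did not follow the others. It was at 527, 572 and 494 CPM in PDH knockout and at 482, 654 and 448 CPM in WT. The knockout values lay inside the WT range, whose SD was 110 CPM with WT replicate 2 highest (0.01 ± 0.14, adjusted p = 0.971). The isomerase genes Pdia3 (-0.14 ± 0.09, adjusted p = 0.208) and P4hb (-0.16 ± 0.08, adjusted p = 0.146) did not pass either. GRP94 and BiP are often read together as markers of ER stress, and the ratio of Hsp90b1 to Hspa5 CPM was 0.884, 0.856 and 0.875 in PDH knockout and 1.28, 1.06 and 1.44 in WT, a mean difference of -0.52 on the log2 scale with no overlap. This ratio and that of Hspe1 to Hspd1 below were chosen after their values were seen; by an exact two-sided permutation test each gave p = 0.1, the smallest that 20 assignments allow, and 0.1 after adjustment over both.

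**Figure D2:**
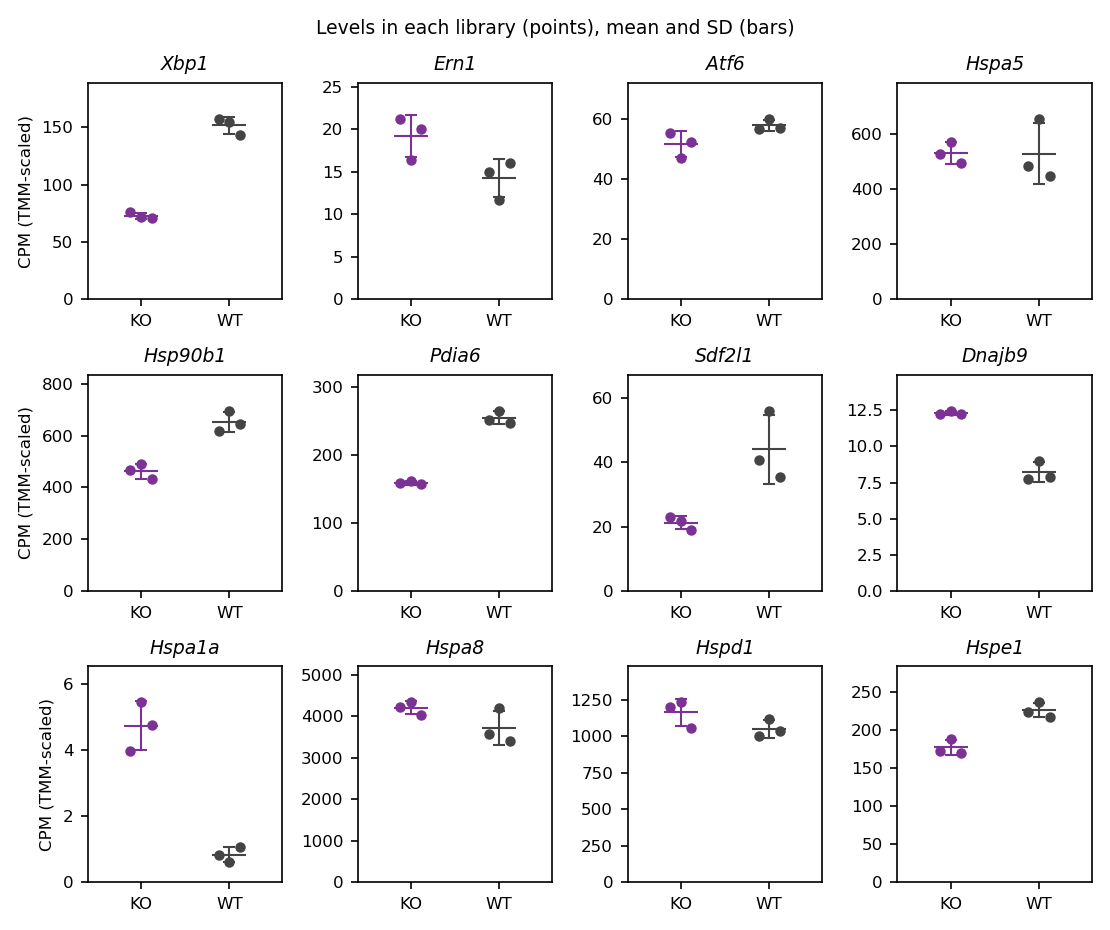
CPM of 12 members in PDH knockout (KO, purple) and WT (dark grey); points are single libraries, the long horizontal line is the mean and the bar is the SD of 3 libraries, and each y axis starts at 0. Xbp1, Pdia6 and Hsp90b1 are well separated between groups, while the Hspa5 and Hspa8 groups overlap.

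WT replicate 2 stood highest of the WT libraries in all 15 ER folding genes, and PDH knockout replicate 3 lowest of the knockout libraries in 12 of them. PDH knockout replicate 3 is the library with the most B cell marker counts, at 248 CPM by library totals. WT replicate 2 is the WT library with the most, at 132 CPM. Without it 9 folding genes fell and 2 rose, and 9 fell and 2 rose without the 3 libraries rich in these markers, which leaves PDH knockout replicate 1 alone in its group and assumes that it varies like the WT libraries. The summed level of the 15 genes was 3473 to 3624 CPM in PDH knockout and 3817 to 4445 CPM in WT (by library totals), and the groups did not overlap.

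**Figure D3:**
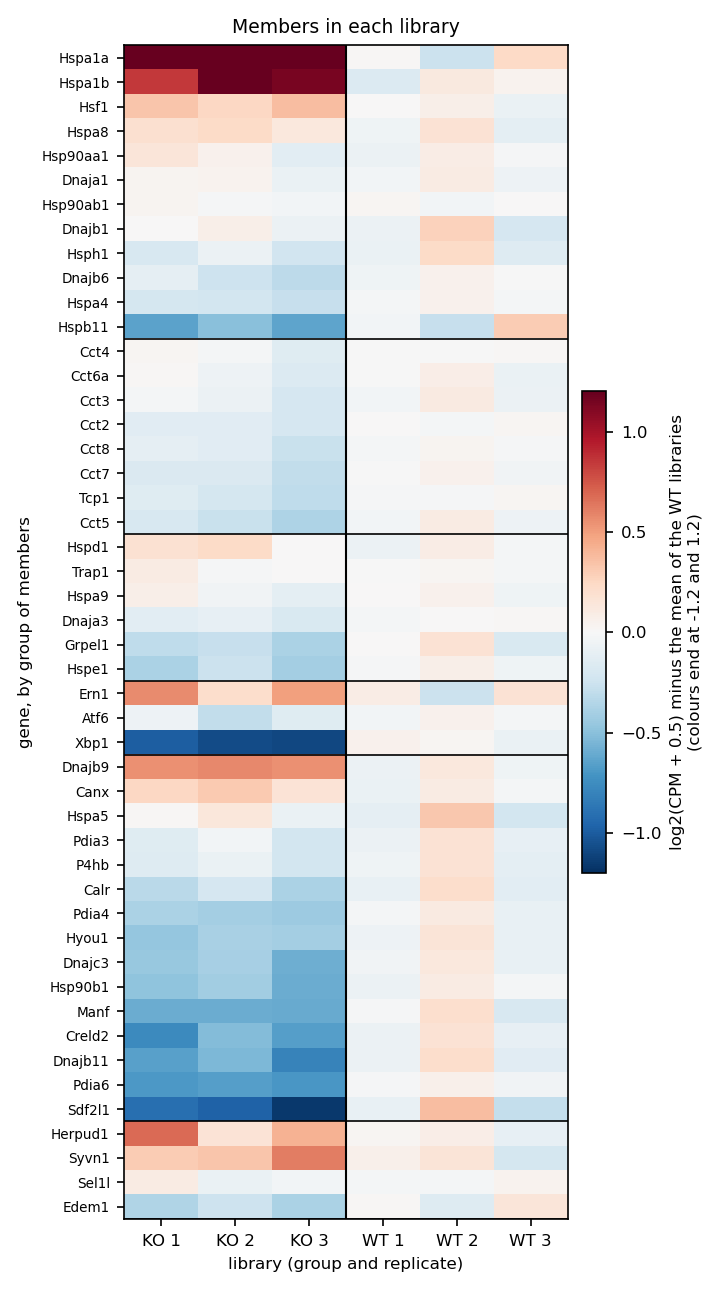
Each row is a member and each column a library (PDH knockout, KO, 1 to 3, then WT 1 to 3); colour is log2(CPM + 0.5) minus the mean of the WT libraries, red for higher and blue for lower and ending at -1.2 and 1.2, with black lines between the groups of members. Apart from the rows of Dnajb9, Canx and Hspa5, the ER folding rows are mostly blue in the 3 knockout libraries, and the WT 2 column is faintly red there.

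A promoter sequence was found in some of the ER genes. The ER stress response element (ERSE), CCAAT and CCACG with 9 bases of any kind between them, is known as the site that ATF6 binds together with the factor NF-Y. It was searched on both strands of RefSeq windows (GRCm38.p6) from 250 bases before to 50 after each gene's start; 39 of the 48 members had a window. The exact letters were in 8 of 19 ER members (42.1%), which are 7 of 13 folding genes and the degradation gene Syvn1, in none of 15 cytosolic and 5 mitochondrial ones, and in 18 of the 10482 tested genes with a window (0.172%). The members were taken by symbol as genes of the response that gives the element its name, so this difference in shares is not an independent finding. The matched sites are shown because they let the reader set genes with the same element but different changes side by side. Each is written 5′ to 3′ on the strand that reads CCAAT first, with the fixed letters in capitals.
Pdia6, chr12:17266491-17266509, plus strand: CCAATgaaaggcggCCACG
Creld2, chr15:88819520-88819538, minus strand: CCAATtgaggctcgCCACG
Hsp90b1, chr10:86705638-86705656, minus strand: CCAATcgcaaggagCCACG
Hsp90b1, chr10:86705533-86705551, plus strand: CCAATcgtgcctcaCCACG
Dnajc3, chr14:118937827-118937845, plus strand: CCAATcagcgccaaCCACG
Calr, chr8:84847075-84847093, plus strand: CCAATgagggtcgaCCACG
Hspa5, chr2:34772025-34772043, plus strand: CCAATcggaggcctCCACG
Canx, chr11:50325800-50325818, minus strand: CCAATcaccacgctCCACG
Syvn1, chr19:6046532-6046550, plus strand: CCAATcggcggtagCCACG

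These 8 genes did not share a direction. Pdia6, Creld2, Hsp90b1, Dnajc3 and Calr fell, Hspa5 did not pass, and Canx and Syvn1 rose, with a median log2 fold change of -0.39. The 11 ER members that have a window without these letters were also mixed, with 3 higher, 5 lower and a median of -0.16. Among the 10 genes outside the members that hold the letters, 4 rose, 1 fell and 5 did not pass. One of them, named after its value was seen, is Derl3, which encodes a channel-forming protein of ER-associated degradation, at 4.41, 2.81 and 3.60 CPM in PDH knockout and 1.59, 1.75 and 1.11 CPM in WT (1.28 ± 0.24, adjusted p = 0.00198). The related ERSE-II letters, ATTGG and CCACG with 1 base between them, were in Herpud1, which rose, and Dnajb11, which fell. They were in 0.095% of tested genes with a window. No member's window held TGACGTGG, a sequence known to bind XBP1, which 0.992% of tested genes with a window had. These letters need not be the only ones that XBP1 binds. A match is a description of the letters and shows no binding, and the absence of a match says only that these letters are not in this window. The windows of Hspa5 and Pdia6 are given whole, as one gene that did not pass and one that fell with a single ERSE each, in capitals.
Hspa5, chr2:34771840-34772139, plus strand: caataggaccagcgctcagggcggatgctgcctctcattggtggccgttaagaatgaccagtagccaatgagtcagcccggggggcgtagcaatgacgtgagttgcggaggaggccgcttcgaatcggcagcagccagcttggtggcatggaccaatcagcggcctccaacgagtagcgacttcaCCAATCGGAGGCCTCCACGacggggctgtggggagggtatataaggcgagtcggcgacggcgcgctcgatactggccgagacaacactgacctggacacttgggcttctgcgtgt
Pdia6, chr12:17266339-17266638, plus strand: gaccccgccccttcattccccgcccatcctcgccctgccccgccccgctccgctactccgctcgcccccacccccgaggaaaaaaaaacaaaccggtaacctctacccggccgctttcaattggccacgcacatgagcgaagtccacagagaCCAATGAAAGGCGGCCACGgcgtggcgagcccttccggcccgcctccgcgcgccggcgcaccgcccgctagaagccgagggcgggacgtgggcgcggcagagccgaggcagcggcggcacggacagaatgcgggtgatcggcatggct

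**Figure D4:**
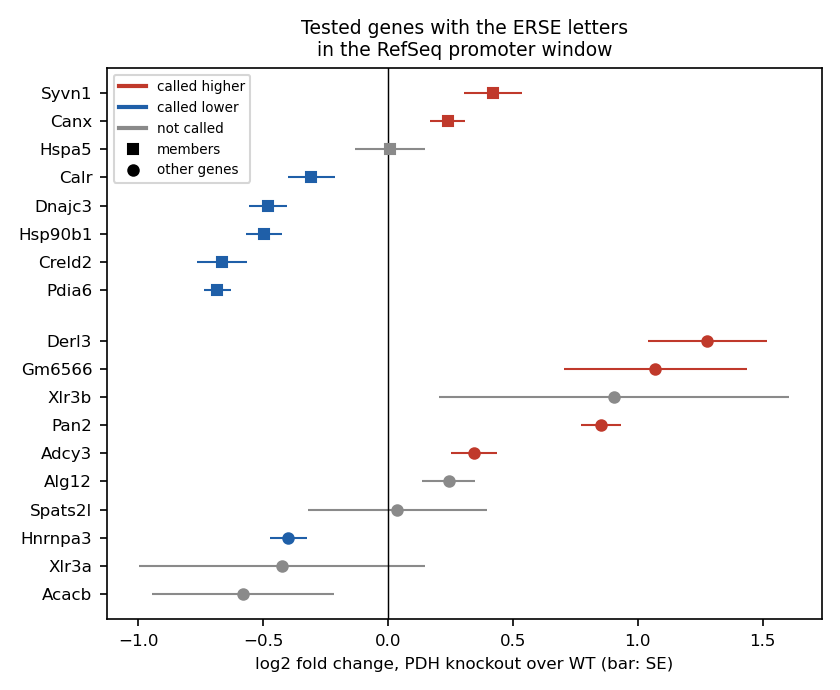
Log2 fold change of PDH knockout over WT (x axis, bars are SE) of the 18 tested genes whose RefSeq promoter window holds the ERSE letters; squares are the 8 members, circles the 10 other genes, and colours mark calls as in the plot of all members. Both sets spread across 0.

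ER-associated degradation, which returns misfolded proteins to the cytosol for the proteasome, has 4 members, of which 2 rose, 1 fell and 1 did not pass. The share called was 75%, against 47.6% of all tested genes. Syvn1, the ubiquitin ligase HRD1, was at 37.4, 38.1 and 46.5 CPM in PDH knockout and at 31.4, 33.7 and 26.0 CPM in WT (0.42 ± 0.12, adjusted p = 0.0155), and did not pass without PDH knockout replicate 3 (adjusted p = 0.057). Herpud1, a membrane protein that helps assemble the HRD1 complex, was at 104, 72.4 and 86.5 CPM in PDH knockout and at 65.5, 68.1 and 60.04 CPM in WT (0.44 ± 0.12, adjusted p = 0.0195). PDH knockout replicate 2 lay close to WT for Herpud1, and the call was lost without PDH knockout replicate 3 or any WT replicate (adjusted p from 0.0537 to 0.0797). Edem1, which recognises glycoproteins marked for degradation, was at 198, 213 and 194 CPM in PDH knockout and at 255, 227 and 280 CPM in WT (-0.33 ± 0.08, adjusted p = 0.00706). Sel1l, the adaptor of HRD1, was at 92.5, 81.3 and 84.3 CPM in PDH knockout and at 84.9, 84.7 and 88.8 CPM in WT, with groups that overlapped fully (adjusted p = 0.988). The 5 rises among all ER members were 2 without PDH knockout replicate 3 and 3 without PDH knockout replicate 1 or any WT replicate.

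Beyond the members, 59 tested genes of ER folding, translocation and degradation were read from a wider list. Of these, 33 fell, 4 rose and 22 did not pass (62.7% called, against 47.6% of all tested genes), with a median of -0.25. Txndc5, a thioredoxin-like isomerase of the ER, was at 52.8, 51.3 and 51.8 CPM in PDH knockout and at 82.9, 84.5 and 76.9 CPM in WT (-0.65 ± 0.06, adjusted p = 4.91e-05). Spcs3, a signal peptidase subunit, fell by 0.68 on the log2 scale (adjusted p = 5.01e-05), and Edem2, a mannosidase-like degradation factor, fell by 0.63 (adjusted p = 6.13e-05). In all 3 genes every knockout library was below every WT library. They were picked for their small p, so this adds no further support, and groups did not overlap in 58.2% of all tested genes.

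Of the 12 cytosolic HSF1, HSP70, HSP90 and J-domain members, 3 rose (Hspa1a, Hspa1b and Hsf1), 3 fell (Hspb11, Hspa4 and Dnajb6) and 6 did not pass, with a median of 0.00 in size. The share called was 50%, against 47.6% of all tested genes. Hspa1a (ENSMUSG00000091971.4), an inducible HSP70 gene, was at 3.96, 5.44 and 4.76 CPM in PDH knockout and at 0.838, 0.602 and 1.06 CPM in WT, from 160 to 190 counts in PDH knockout and 23 to 43 counts in WT. Its rise of 2.49 ± 0.24, or 5.63-fold (adjusted p = 6.06e-05), was the largest of the 48, at the lowest level per length of all members in both groups. Hspa1b, its neighbouring near-identical copy, was at 5.297, 8.36 and 6.602 CPM in PDH knockout and at 2.38, 2.99 and 2.82 CPM in WT (1.31 ± 0.19, adjusted p = 0.000543). Reads can be split uncertainly between these copies, so their sum is given too: 9.26, 13.8 and 11.4 CPM in PDH knockout and 3.22, 3.59 and 3.88 CPM in WT. All knockout sums exceeded all WT sums. Hsf1, the heat shock transcription factor gene, was at 55.6, 52.5 and 57.0 CPM in PDH knockout and at 44.2, 46.3 and 41.6 CPM in WT (0.32 ± 0.07, adjusted p = 0.00336).

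The constitutive chaperones were at far higher levels. Per kilobase of merged exon length (GENCODE M21), Hsp90ab1 was at 1341 CPM per kb in PDH knockout and 1345 CPM per kb in WT, Hspa8 at 976 and 865, and Hspa1a at 1.59 and 0.281 CPM per kb in PDH knockout and WT. Hspa8, the constitutive HSP70 gene, was at 4225, 4339 and 4035 CPM in PDH knockout and at 3573, 4185 and 3409 CPM in WT. WT replicate 2 fell among the knockout values and the gene did not pass (0.17 ± 0.09, adjusted p = 0.12), but it passed without WT replicate 2 (adjusted p = 0.0147) and with upper-quartile or library-total scaling (adjusted p = 0.0208 and 0.0446). Hsp90ab1, the constitutive HSP90 gene, was at 4132, 3985 and 3950 CPM in PDH knockout and at 4099, 3944 and 4059 CPM in WT, and the groups could not be told apart (0.00 ± 0.06 in size, adjusted p = 0.963). Hsp90aa1, the inducible HSP90 gene, and the J-domain genes Dnaja1 and Dnajb1 did not pass, with log2 fold changes of 0.03, 0.00 and -0.01, nor did Hsph1, an HSP70 exchange factor (-0.17 ± 0.10, adjusted p = 0.177). Hspb11, an intraflagellar transport protein despite its heat shock symbol, was at 12.01, 13.2 and 12.04 CPM in PDH knockout and at 18.5, 15.6 and 23.6 CPM in WT (-0.63 ± 0.14, adjusted p = 0.00518). Hspa4, another exchange factor of HSP70, fell by 0.24, and Dnajb6, a J-domain suppressor of aggregation, fell by 0.22 and was not called without PDH knockout replicate 2 or 3 (adjusted p = 0.0637 and 0.0791).

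The 8 subunit genes of TRiC, the ring-shaped chaperonin with 8 different subunits, all had log2 fold changes below 0, from -0.28 to -0.05, but small ones. Of them 4 fell and 4 did not pass (50% called, against 47.6% of all tested genes). Cct5 was at 628, 595 and 552 CPM in PDH knockout and at 699, 765 and 686 CPM in WT (-0.28 ± 0.07, adjusted p = 0.0115). Cct7 was at 469, 469 and 432 CPM in PDH knockout and at 529, 549 and 515 CPM in WT (-0.22 ± 0.06, adjusted p = 0.0176). Tcp1, the first subunit, was at 725, 692 and 645 CPM in PDH knockout and at 789, 794 and 814 CPM in WT (-0.22 ± 0.07, adjusted p = 0.0208). Knockout values lay below WT values in each of these genes, as no called member had overlapping groups. Cct2 was at 692, 690 and 662 CPM in PDH knockout and at 761, 747 and 774 CPM in WT (-0.16 ± 0.06, adjusted p = 0.0481). Its call was lost whichever library was left out (adjusted p from 0.0602 to 0.135), that of Tcp1 without PDH knockout replicate 2 or 3 or WT replicate 1 (adjusted p = 0.0578, 0.0749 and 0.0599) and that of Cct7 without PDH knockout replicate 3 or WT replicate 1 (adjusted p = 0.0648 and 0.0577). Cct8 missed the threshold (-0.17 ± 0.06, adjusted p = 0.0523) but passed by DESeq2 (adjusted p = 0.0205) and limma-voom (adjusted p = 0.0433), and Cct3, Cct6a and Cct4 were at -0.10, -0.07 and -0.05. Under upper-quartile scaling 1 subunit fell, and Cct4 and Cct6a were above 0. The 4 calls were lost in the test against a fold of 1.2 and also without the 3 libraries rich in B cell markers (edgeR adjusted p from 0.218 to 0.28). Without those libraries Calr, Hspa4, Dnajb6, Grpel1 and Syvn1 also lost their calls. PDH knockout replicate 3 was the lowest and PDH knockout replicate 1 the highest of the knockout libraries in all 8 subunits.

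Of 40 tested cytosolic cochaperone genes outside the members, 20 fell, 2 rose and 18 did not pass, with a median of -0.19. The share called was 55%, against 47.6% of all tested genes. Hspa14, an HSP70-like protein of the ribosome, was at 83.4, 87.7 and 83.2 CPM in PDH knockout and at 132, 137 and 127 CPM in WT (-0.64 ± 0.06, adjusted p = 3.99e-05). Fkbp4, a prolyl isomerase that works with HSP90, fell by 0.67 (adjusted p = 5.47e-05), and Hspa13, an HSP70-like gene whose product is in microsomes rather than the cytosol, fell by 0.71 (adjusted p = 7.05e-05). In these genes, too, no knockout value reached the WT range, which adds no further support since they were picked for their small p.

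Of the 6 mitochondrial chaperones 2 fell and 4 did not pass (33.3% called, against 47.6% of all tested genes), with a median of -0.08. Hspd1, the gene of HSP60, was at 1196, 1232 and 1056 CPM in PDH knockout and at 1002, 1120 and 1033 CPM in WT. The groups overlapped (0.14 ± 0.08, adjusted p = 0.16), and Hspd1 passed as higher only with upper-quartile scaling (adjusted p = 0.0308). Hspe1, the gene of its lid HSP10, was at 173, 188 and 170 CPM in PDH knockout and at 224, 236 and 217 CPM in WT (-0.35 ± 0.06, adjusted p = 0.00151). The ratio of Hspe1 to Hspd1 CPM was 0.145, 0.153 and 0.161 in PDH knockout and 0.224, 0.211 and 0.210 in WT, without overlap. Both have processed copies elsewhere in the genome, with which reads may be shared. Grpel1, the nucleotide exchange factor of mitochondrial HSP70, was at 46.1, 47.0 and 43.8 CPM in PDH knockout and at 57.4, 64.6 and 50.5 CPM in WT (-0.33 ± 0.09, adjusted p = 0.0118). Hspa9, that HSP70 itself, and Trap1, the mitochondrial HSP90, were at -0.03 ± 0.07 and 0.03 ± 0.06, and Dnaja3, a J-domain partner, at -0.14 ± 0.06 (adjusted p = 0.067). Of 15 other genes of mitochondrial proteostasis 9 fell and 2 rose (73.3% called, against 47.6% of all tested genes), with a median of -0.29. Dnajc15, a J-domain protein of the import motor, was at 19.6, 21.1 and 19.5 CPM in PDH knockout and at 36.6, 37.2 and 31.0 CPM in WT (-0.80 ± 0.09, adjusted p = 0.00012), and Phb2, a prohibitin, and Yme1l1, an inner-membrane protease, fell by 0.51 and 0.43.

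Hspd1 and Hspe1 lie on opposite strands, and RefSeq gives Hspd1 a pair of starts. One of these is 216 bases from the Hspe1 start, and its window overlaps that of Hspe1 by 285 bases, so both hold the same heat shock element. The window of the other Hspd1 start (chr1:55088194-55088493, minus strand) held no match. The element was searched on both strands as GAA, TTC and GAA, or TTC, GAA and TTC, in turn with 2 bases between neighbours. These exact letters were in 57 of the 10482 tested genes with a window (0.544%). Among the members they were also in Dnajb6 and Hsph1, but not in the windows of Hspa1a and Hspa1b. Imperfect copies of the element were not counted, so this does not show that those windows lack one. The window of Hspe1 is shown because its site is also in a window of Hspd1, which did not pass, while Hspe1 fell. Its 2 overlapping matches, 18 bases in all, are in capitals.
Hspe1, chr1:55087898-55088197, plus strand: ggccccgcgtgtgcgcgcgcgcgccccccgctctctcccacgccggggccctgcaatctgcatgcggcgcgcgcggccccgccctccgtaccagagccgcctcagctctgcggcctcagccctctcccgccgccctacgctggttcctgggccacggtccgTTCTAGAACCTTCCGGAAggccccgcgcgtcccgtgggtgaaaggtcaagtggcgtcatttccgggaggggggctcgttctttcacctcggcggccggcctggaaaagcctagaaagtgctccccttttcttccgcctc

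**Figure D5:**
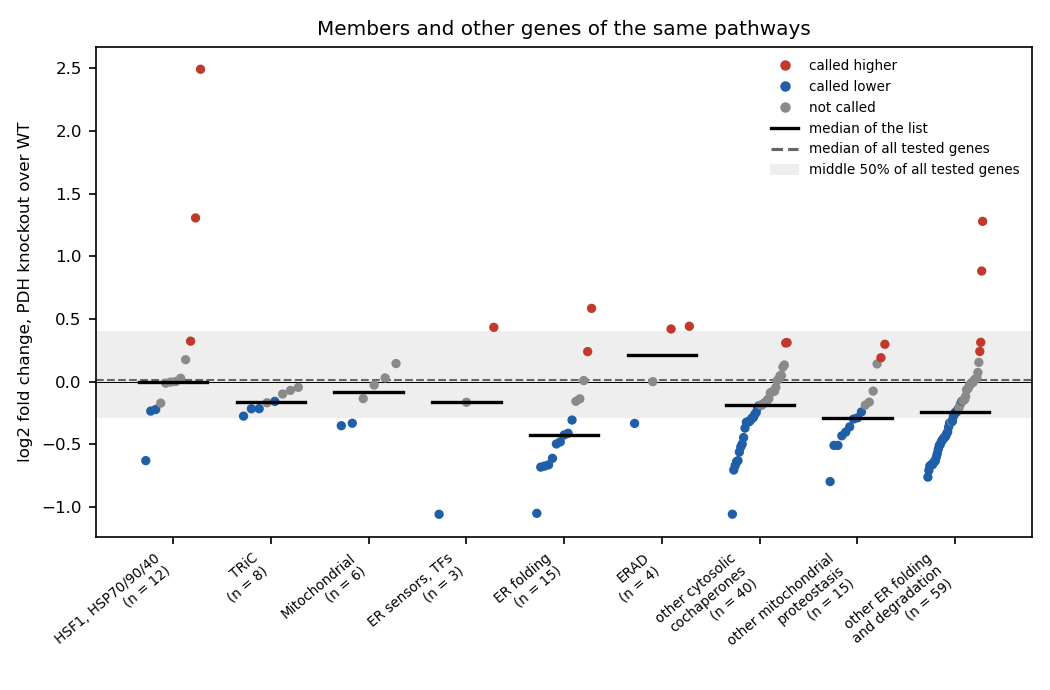
Log2 fold change of PDH knockout over WT (y axis) of the members by group and of 3 wider lists (x axis, n genes each); points are genes, coloured by call, black lines are list medians, the dashed line is the median and the grey band the middle 50% of all tested genes. The ER folding genes have the lowest median of the groups shown.

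Set side by side, median deviations from the WT mean in each library showed where the groups separated. For the 22 ER members the median log2 deviation was -0.34, -0.28 and -0.38 in PDH knockout replicates 1 to 3 and -0.05, 0.13 and -0.09 in WT replicates 1 to 3. For the 20 cytosolic members it was -0.01, -0.07 and -0.18 in PDH knockout and -0.03, 0.06 and -0.02 in WT, and for the 6 mitochondrial members -0.03, -0.07 and -0.15 in PDH knockout and -0.01, 0.06 and -0.04 in WT. The knockout and WT libraries separated in the ER set and overlapped in the cytosolic and mitochondrial sets. Within the cytosolic set the 8 TRiC genes separated, at -0.12, -0.14 and -0.24 in PDH knockout and -0.01, 0.04 and -0.03 in WT. Within the ER set the median of the 4 degradation genes was 0.20, 0.04 and 0.20 in PDH knockout and 0.02, 0.03 and -0.03 in WT. PDH knockout replicate 2 thus lay close to WT, and the 4 genes did not move together. Herpud1 and Syvn1 lay above the WT mean in every knockout library. Edem1 lay below it (-0.36, -0.25 and -0.38), and Sel1l was mixed (0.10, -0.08 and -0.03). Their summed levels overlapped, at 395 to 442 CPM in PDH knockout and 401 to 456 CPM in WT (by library totals). The medians describe the libraries, and the difference between compartments was not tested. The cytosolic heat shock members summed to 10883 to 11564 CPM in PDH knockout and 10230 to 10793 CPM in WT by library totals. Hspa8, Hsp90ab1 and Hsp90aa1 carried this sum, which leaves out the TMM factors. With those factors none of these genes passed, at log2 fold changes of 0.17, -0.004 and 0.03.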

How the data were processed

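The deposited values are expected counts per gene, estimated read counts in whole numbers; Salmon, DESeq2 and DESeq are the tools listed, per the submitters' processing notes. Their versions and roles, the build and the annotation were not stated in the labels or the file header. Low genes had been removed beforehand, since all 15452 rows hold at least 10 counts in at least 3 libraries. IDs were matched without version to GENCODE M21 symbols (15138 matched, and of IDs sharing a symbol the one with the highest mean count kept it). Genotype was the only term of an edgeR 4.0.16 quasi-likelihood fit (R 4.3.3) with robust dispersions, TMM scaling and filterByExpr, which left 15361 genes; p-values were adjusted by Benjamini-Hochberg across these. SE is the absolute log2 fold change over the square root of F. The test was tried on simulated counts of 13347 genes first, with 50 genes changed at each fold. It called 10% of 1.25-fold, 48% of 1.5-fold, 96% of 2-fold and 100% of 4-fold changes in the right direction. Of its calls 1.55% were false. Few genes were changed there and all shared a common dispersion, so these shares do not carry over to single members. A gene that did not pass may still have changed by a small fold. No replicates were a library deposited again (chi-square per degree of freedom at least 24.1).

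The members and gene lists were chosen with earlier results of these data known. Values per library were printed for Hsf1, Xbp1, Atf6, Ern1, Hspa8, Hsp90ab1, Hspd1 and Hspa5, for up to 4 called members of each of the 6 groups with the smallest p, and up to 3 genes of each wider list, and for others where the text says so. Alternatives were other scalings, filters and tests (DESeq2 1.42.0, limma-voom 3.58.1), a replicate block, libraries left out, and 23 entries over 5 times higher in knockout replicate 2 left out. Figures used matplotlib 3.10.9.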

Additional observations from a re-analysis of the deposited data

How the results depend on the processing

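No member called in the analysis above changed direction under any of 17 alternatives, and 14 of the 29 called members stayed called under all of them. The test against a fold of 1.2 called 3981 genes, 3 members higher and 11 lower, with 1 cytosolic and 0 mitochondrial members lower and 1 ER member higher. Upper-quartile scaling left 3 cytosolic members lower and called 1 mitochondrial member higher, and library totals left 4 cytosolic members lower. Without the 3 libraries rich in B cell markers 13 members were lower, of them 1 cytosolic and 1 mitochondrial. Leaving out 1 library at a time gave 5524 to 6961 called genes, 5 to 7 members higher and 16 to 20 lower; ER members higher ran from 2 to 4, cytosolic lower from 3 to 6. With DESeq2 size factors, no filter, or the 23 entries left out, every member kept its side of the threshold. Deviations of same-numbered libraries correlated at -0.08, 0.13 and -0.26. Libraries 2 matched best with their own number, and libraries 1 and 3 did not. So few libraries cannot exclude a pairing by replicate number. The replicate block called 7218 genes, 8 members higher and 20 lower, Cct2 being the one call lost (edgeR adjusted p = 0.0995). For other lost calls, the cause was not tested. Depth limits Hspa1a most, at 160 to 190 counts in PDH knockout and 23 to 43 counts in WT.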
